A study of Mus musculus with 7 samples.

Results

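The genes described here are 35 genes that serve folding, quality control and entry of proteins in the endoplasmic reticulum (ER), together with the sensors and transcription factors of its stress response. They were taken by symbol from a named list, which was drawn up with earlier results of these data known. All 35 are among the 24964 genes listed, and 35 of 35 had a mean of at least 1 FPKM (fragments normalized for gene length and for library size) and were tested. By role they comprise 15 chaperones and folding enzymes, 7 sensors and transcription factors, 5 genes of ER-associated degradation, and 8 genes of the translocon and signal peptidase.

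RNA was sequenced from whole uterus of 12-week-old mice in diestrus, a stage of the estrous cycle. Controls were 3 libraries of genotype Pgrcre/+, numbered 1, 2 and 4. They were compared with 4 libraries of genotype Pgrcre/+Foxl2LsL/+, numbered 1 to 4 and called libraries labelled Foxl2-LSL. Every library therefore carries 1 Pgr-Cre allele, which expresses Cre recombinase from the progesterone receptor gene in cells where that gene is active. By its title the study is about FOXL2, a forkhead transcription factor, overexpressed in the uterus. The labels do not say whether each library is 1 animal or a pool, so p-values measure the spread between these libraries.

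The ER is where secreted and membrane proteins enter the secretory pathway, are glycosylated and fold. The chaperone BiP, encoded by Hspa5, binds unfolded chains and also holds the stress sensors inactive. When unfolded protein accumulates, the sensors IRE1 (Ern1), PERK (Eif2ak3) and ATF6 start the unfolded protein response, which raises chaperones and degradation factors through XBP1, ATF6 and ATF4. Uterine epithelium and stroma secrete proteins into the lumen and the matrix, and ER folding genes are highly expressed in secretory cells in general.

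Many ER chaperone genes carry an ER stress element in their promoter, a CCAAT box and a CCACG box set 9 bases apart, which NF-Y and ATF6 are known to bind. The elements are shown because they are the best-known regulatory sequence of this gene family. RefSeq promoter windows (GRCm38.p6, 250 bases before to 50 after the RefSeq start site, 300 in all) were found for 29 members. No window was used for Hyou1, Manf, Atf6, Sec61a1, Ssr2 or Sec11c. The exact pattern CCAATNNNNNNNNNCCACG, searched on both strands, lay in the windows of 9 of the 29 members (31.0%) and in 39 of all 32851 windows (0.119%). In the sequences below, which run 5′ to 3′ along the gene with 6 flanking bases, capitals mark the fixed letters of the element. Where the element lies on the other strand it reads CGTGG first and ATTGG second.
Hspa5, chr2:34772025-34772043: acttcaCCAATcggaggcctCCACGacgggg
Hsp90b1, chr10:86705638-86705656: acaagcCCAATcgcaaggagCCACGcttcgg
Hsp90b1, chr10:86705533-86705551: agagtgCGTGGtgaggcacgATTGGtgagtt
Calr, chr8:84847075-84847093: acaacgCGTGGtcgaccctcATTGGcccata
Canx, chr11:50325800-50325818: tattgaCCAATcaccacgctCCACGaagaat
Pdia6, chr12:17266491-17266509: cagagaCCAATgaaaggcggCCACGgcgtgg
Creld2, chr15:88819520-88819538: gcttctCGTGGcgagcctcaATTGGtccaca
Dnajc3, chr14:118937827-118937845: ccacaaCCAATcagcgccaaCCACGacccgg
Syvn1, chr19:6046532-6046550: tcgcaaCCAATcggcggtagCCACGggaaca
Derl3, chr10:75893242-75893260: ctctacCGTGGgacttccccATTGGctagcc

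In the Hspa5 window the exact element began 65 bases before the RefSeq start site. The 250 bases before that start site (chr2:34771840-34772089, plus strand, GRCm38.p6), with the element in capitals, are as follows.
Hspa5: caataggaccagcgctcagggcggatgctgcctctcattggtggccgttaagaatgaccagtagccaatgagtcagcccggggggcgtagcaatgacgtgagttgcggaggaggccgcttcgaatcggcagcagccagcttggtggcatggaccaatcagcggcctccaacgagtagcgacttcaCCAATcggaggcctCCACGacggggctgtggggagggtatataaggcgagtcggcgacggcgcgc

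A shorter form, ER stress element II (ATTGGNCCACG, both strands), lay in the windows of Herpud1 and Dnajb11 and in 12 of all 32851 windows (0.0365%). The Herpud1 element lies before the start site and the Dnajb11 element just after it.
Herpud1, chr8:94386377-94386387: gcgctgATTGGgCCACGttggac
Dnajb11, chr16:22857852-22857862: gcggcgATTGGcCCACGcctggc
Neither the unfolded protein response element (TGACGTGG, 0.676% of all windows) nor the amino acid response element (TGATGNAAT, 0.965% of all windows) was found in the 29 member windows.

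Before the members, the libraries and the targeted gene were checked. The deposited FPKM values stood for denominators of 47800000 to 67300000 fragments per library, and at least 87 fragments lay on each member in each library. Foxl2 was at 11.1, 19.3 and 12.9 FPKM in controls 1, 2 and 4 and at 12.7, 14.3, 14.8 and 17.2 FPKM in libraries 1 to 4 labelled Foxl2-LSL. It was therefore not higher beyond the spread (log2 fold change 0.06, SE 0.18; adjusted p = 0.818 by limma), so what follows compares the libraries as they were labelled. Whether transcripts of the Foxl2LsL allele are counted under this symbol is not given in the sources used here. Of 5 markers of uterine identity, 5 were expressed, with summed levels of 183 to 331 FPKM in controls and 130 to 141 FPKM in libraries labelled Foxl2-LSL. Among them Hoxa10 (log2 fold change -1.45), Hoxa11 (-1.90) and Hoxd10 (-1.65) fell, Esr1 rose (0.55), and Pgr was not called. Control 2 stood apart in Ovgp1, an oviduct secretory gene, at 291 FPKM against 1.65 to 19.7 FPKM in the other 6 libraries. Of 6 ciliated-cell genes listed after seeing the Ovgp1 value, 4 were highest in control 2, among them Foxj1 at 3.78 FPKM against 0.728 to 2.08 FPKM in the other libraries. The other two were highest elsewhere, Dnah5 in control 4 and Ccdc39 in library 2 labelled Foxl2-LSL. Adipocyte markers (6 genes) summed to 0.0530 to 19.9 FPKM in controls and 0.835 to 62.8 FPKM in libraries labelled Foxl2-LSL. Among them Adipoq was highest in libraries 2 and 3 labelled Foxl2-LSL, at 15.2 and 27.3 FPKM, and next in control 4, at 9.23 FPKM, with at most 2.40 FPKM in the other 4 libraries.

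In the libraries labelled Foxl2-LSL, 12 of 15 ER chaperones and folding enzymes were lower, and 0 of 7 sensors and transcription factors passed the test. The difference between these roles was not tested. Of the 35 members, 17 fell and 0 rose at an adjusted p below 0.05 (limma on log2(FPKM + 1), Benjamini-Hochberg over 13334 tested genes). Among all tested genes 40.6% were called, 23.9% as lower and 16.7% as higher. Without control 2, 7 of the 35 members and 6 of the 15 chaperones and folding enzymes passed, beside 16.5% of all tested genes as lower. At an unadjusted p below 0.05, 19 members were lower and 0 higher, and limma-voom also called 0 as higher. The median log2 fold change of the 35 members was -0.36, against -0.05 over all tested genes, and 30 of the 35 estimates were below 0. The groups did not overlap for 17 members, all of them lower in libraries labelled Foxl2-LSL. Over all tested genes the groups did not overlap in 47.6%, and in 27.9% with the libraries labelled Foxl2-LSL lower. In bulk tissue, fewer cells of a type and less RNA per cell cannot be told apart.

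The members together took 0.809%, 1.03% and 0.889% of the fragments on listed genes in controls 1, 2 and 4. They took 0.688%, 0.592%, 0.653% and 0.682% in libraries 1 to 4 labelled Foxl2-LSL, so the groups did not overlap. The chaperones and folding enzymes made up most of this share, at 0.660% ± 0.103 in controls against 0.440% ± 0.0343 in libraries labelled Foxl2-LSL (SD, n = 3 and n = 4). The share of the sensors and transcription factors was 0.0534% ± 0.00459 (SD, n = 3) and 0.0507% ± 0.00223 (SD, n = 4), and its groups overlapped. These shares are descriptions, with no test.

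**Figure D1:**
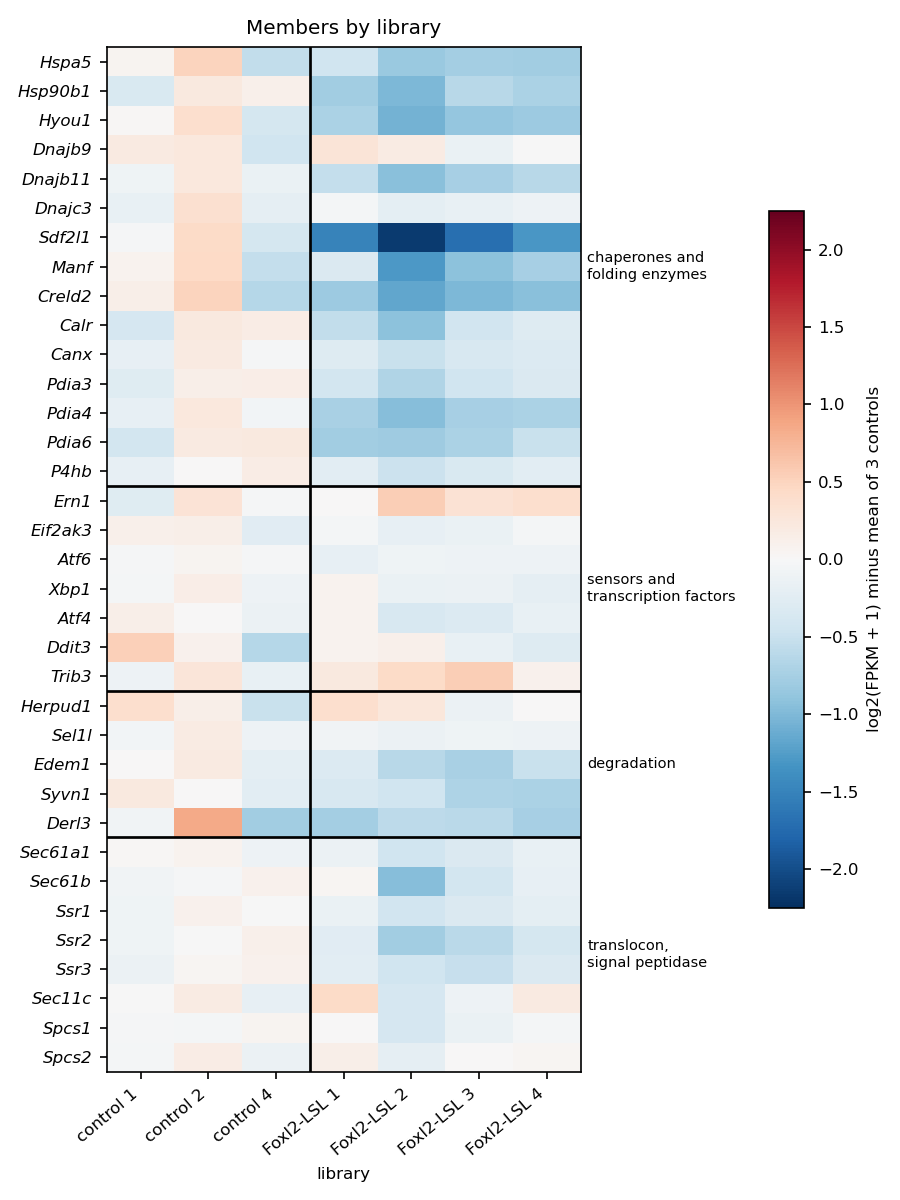
Each row is 1 of the 35 members and each column 1 library; colour gives log2(FPKM + 1) minus the mean of the 3 controls, with red higher and blue lower, and black lines separate the roles and the groups. Of the 15 chaperones and folding enzymes 14 are below the control mean in all 4 libraries labelled Foxl2-LSL; Dnajb9 is above it in libraries 1 and 2, and among the sensors and transcription factors Ern1 and Trib3 are above theirs, most in libraries 2 and 3 respectively.

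The chaperones and folding enzymes held the most calls. Of 15, 12 fell, with a median log2 fold change of -0.71 over the 15. Hspa5 (chr2:34771970-34777547, plus strand, in GENCODE M21 on GRCm38) was at 236, 321 and 155 FPKM in controls 1, 2 and 4. The values were 167, 127, 133 and 133 FPKM in libraries 1 to 4 labelled Foxl2-LSL. Controls 1 and 2 were above all 4 of these libraries, whereas control 4 lay below library 1. The log2 fold change of Hspa5 was -0.71 (SE 0.23; adjusted p = 0.0411 by limma; two-sided exact permutation p = 0.114). This call was lost without control 1 (adjusted p = 0.0932) and without control 2 (log2 fold change -0.46, adjusted p = 0.116), as it was when library 2, 3 or 4 labelled Foxl2-LSL was left out (limma).

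Sdf2l1 encodes an ER-resident protein that works with BiP and its J-domain partners, and its fall was the largest of the 35. It was at 21.0, 29.3 and 16.1 FPKM in controls 1, 2 and 4 and at 6.89, 4.08, 5.96 and 8.02 FPKM in libraries 1 to 4 labelled Foxl2-LSL. Each control was above every library of the other group. Its log2 fold change was -1.67 (SE 0.24; adjusted p = 0.00185 by limma).

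Creld2, which encodes a stress-induced ER protein with disulfide isomerase activity, was at 45.8, 59.7 and 26.4 FPKM in controls 1, 2 and 4. In libraries 1 to 4 labelled Foxl2-LSL its values were 23.3, 18.1, 20.2 and 21.1 FPKM. The groups were separated by a narrow gap, because control 4 lay far below controls 1 and 2. The log2 fold change was -0.98 (SE 0.24; adjusted p = 0.0156 by limma).

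Hyou1, a large HSP70-related chaperone that exchanges nucleotide on BiP, was at 39.0, 50.0 and 28.8 FPKM in controls 1, 2 and 4. Its values in libraries 1 to 4 labelled Foxl2-LSL were 23.1, 17.7, 20.6 and 21.4 FPKM, all below each control (log2 fold change -0.86, adjusted p = 0.00703, limma).

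Manf, a secreted ER stress protein, was at 43.8, 57.5 and 28.6 FPKM in controls 1, 2 and 4 and at 33.0, 16.5, 21.4 and 24.5 FPKM in libraries 1 to 4 labelled Foxl2-LSL. Library 1 of the latter lay above control 4, so the groups overlapped. The log2 fold change of -0.82 passed narrowly (SE 0.28; adjusted p = 0.0467 by limma), and the call was lost without control 1 or 2 and without library 2, 3 or 4 labelled Foxl2-LSL (adjusted p from 0.0826 to 0.154 by limma). Its exons overlap those of Rbm15b, Dcaf1 and an antisense gene in GENCODE M21, and the use of strand in counting is not given in the sources used here, so its values are uncertain.

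Pdia4, a protein disulfide isomerase, was at 83.2, 112 and 90.3 FPKM in controls 1, 2 and 4. Libraries 1 to 4 labelled Foxl2-LSL gave 56.2, 48.1, 56.0 and 57.2 FPKM, and the groups were well apart. The log2 fold change was -0.79 (SE 0.11; adjusted p = 0.00193 by limma).

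Another 6 of these genes fell by less than Pdia4. Hsp90b1, the HSP90 of the ER, averaged 327 ± 65.1 FPKM in controls and 189 ± 20.5 FPKM in libraries labelled Foxl2-LSL (SD, n = 3 and n = 4), with a log2 fold change of -0.78. Dnajb11, a J-domain partner of BiP, had a log2 fold change of -0.71 and Pdia6 one of -0.70. Smaller falls were those of Pdia3 (-0.47), Canx (-0.36), which encodes calnexin, and P4hb (-0.33), a disulfide isomerase that is also the beta subunit of prolyl 4-hydroxylase. Calr, the gene of calreticulin, missed the threshold (375 ± 79.0 against 253 ± 45.3 FPKM; SD, n = 3 and n = 4; log2 fold change -0.56, limma adjusted p = 0.0506). Calr passed in 6 of 17 alternative fits, among them those without control 1 and without library 4 labelled Foxl2-LSL. Dnajb9 (23.2 ± 5.92 and 24.1 ± 3.35 FPKM) and Dnajc3 (21.6 ± 5.23 and 19.2 ± 1.14 FPKM), J-domain proteins that assist and regulate BiP, overlapped between the groups and were not called. With array weights Dnajc3 passed as lower (log2 fold change -0.36, limma adjusted p = 0.0302). Without control 2, 6 of the 15 genes passed, and the calls of Hspa5, Manf, Pdia6 (adjusted p = 0.0501 by limma), Pdia3, Canx and P4hb were lost. Pdia3, Canx and P4hb were lost without library 2 or 3 labelled Foxl2-LSL as well, where 7 of the 15 passed. In these 2 fits 21.0% and 17.5% of all tested genes were called as lower. Control 4 also decided Pdia3 and P4hb, library 4 decided Canx and P4hb, and library 1 decided P4hb.

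**Figure D2:**
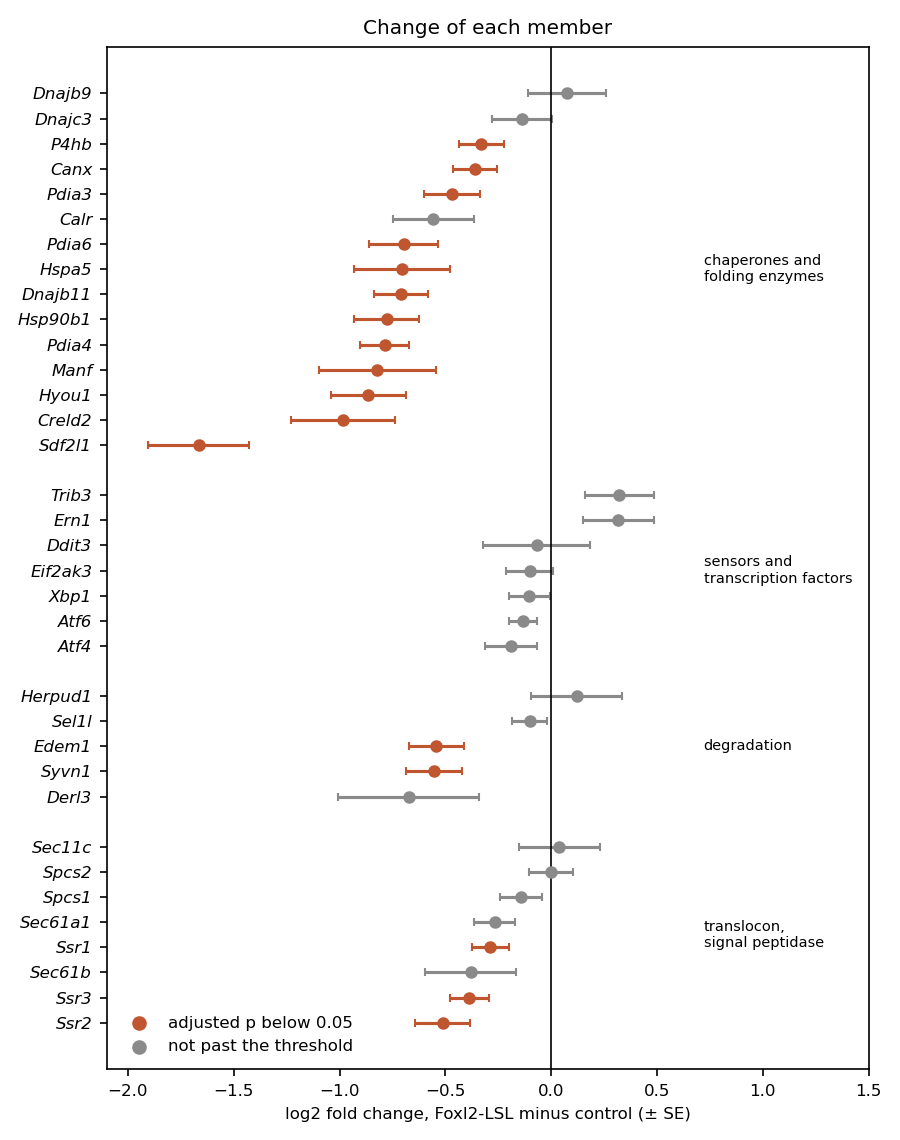
Points give the log2 fold change of each member, Foxl2-LSL minus control on the log2(FPKM + 1) scale, and bars ± 1 SE from limma; orange points have an adjusted p below 0.05. Chaperones run down to -1.67 for Sdf2l1, and no sensor or transcription factor is orange.

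Of the 7 sensors and transcription factors, 0 passed the threshold with limma, 0 had an unadjusted p below 0.05 (the smallest was 0.0795), and limma-voom called 0. With array weights 1 passed, Atf6. A p that misses the threshold does not show that levels were equal. Among the sensors, Ern1 was at 7.20, 11.3 and 8.78 FPKM in controls 1, 2 and 4 and at 8.99, 13.5, 11.5 and 12.0 FPKM in libraries 1 to 4 labelled Foxl2-LSL. Its groups overlapped, with 3 of the latter above each control, and the log2 fold change was 0.32 (SE 0.17; limma adjusted p = 0.165).

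Eif2ak3, the gene of PERK, was at 6.73, 6.83 and 5.01 FPKM in controls 1, 2 and 4 and at 5.92, 5.29, 5.45 and 5.95 FPKM in libraries 1 to 4 labelled Foxl2-LSL. The latter all lay within the range of the controls. Atf6 was at 7.25, 7.79 and 7.32 FPKM in controls 1, 2 and 4 and at 6.40, 6.87, 6.81 and 6.76 FPKM in libraries 1 to 4 labelled Foxl2-LSL. Its groups did not overlap, but the difference was small (log2 fold change -0.13, SE 0.07; limma adjusted p = 0.142; two-sided exact permutation p = 0.0571, the smallest that 3 against 4 libraries allow).

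Xbp1, whose spliced form is the effector of IRE1, was at 65.9, 74.7 and 62.7 FPKM in controls 1, 2 and 4. In libraries 1 to 4 labelled Foxl2-LSL it was at 71.8, 60.7, 61.3 and 58.3 FPKM. Library 1 of these was above controls 1 and 4 and the other 3 were below every control (log2 fold change -0.10, SE 0.10; limma adjusted p = 0.418). The table gives 1 value per gene, so spliced and unspliced Xbp1 cannot be told apart.

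Atf4, the effector of PERK, which is controlled largely at translation, was at 74.4, 68.5 and 62.0 FPKM in controls 1, 2 and 4 and at 72.4, 52.6, 55.0 and 60.2 FPKM in libraries 1 to 4 labelled Foxl2-LSL. Again library 1 lay among the controls and the others below them (log2 fold change -0.19, limma adjusted p = 0.244). Ddit3, which encodes the pro-apoptotic factor CHOP, ranged more among controls (26.8, 19.5 and 11.3 FPKM) than among libraries 1 to 4 labelled Foxl2-LSL (19.1, 19.6, 16.0 and 14.7 FPKM). Trib3, a pseudokinase gene induced by ATF4 and CHOP, was low throughout, at 0.738, 1.28 and 0.661 FPKM in controls and 1.17, 1.51, 1.75 and 1.01 FPKM in libraries labelled Foxl2-LSL. Its log2 fold change of 0.32 did not pass (limma adjusted p = 0.148).

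**Figure D3:**
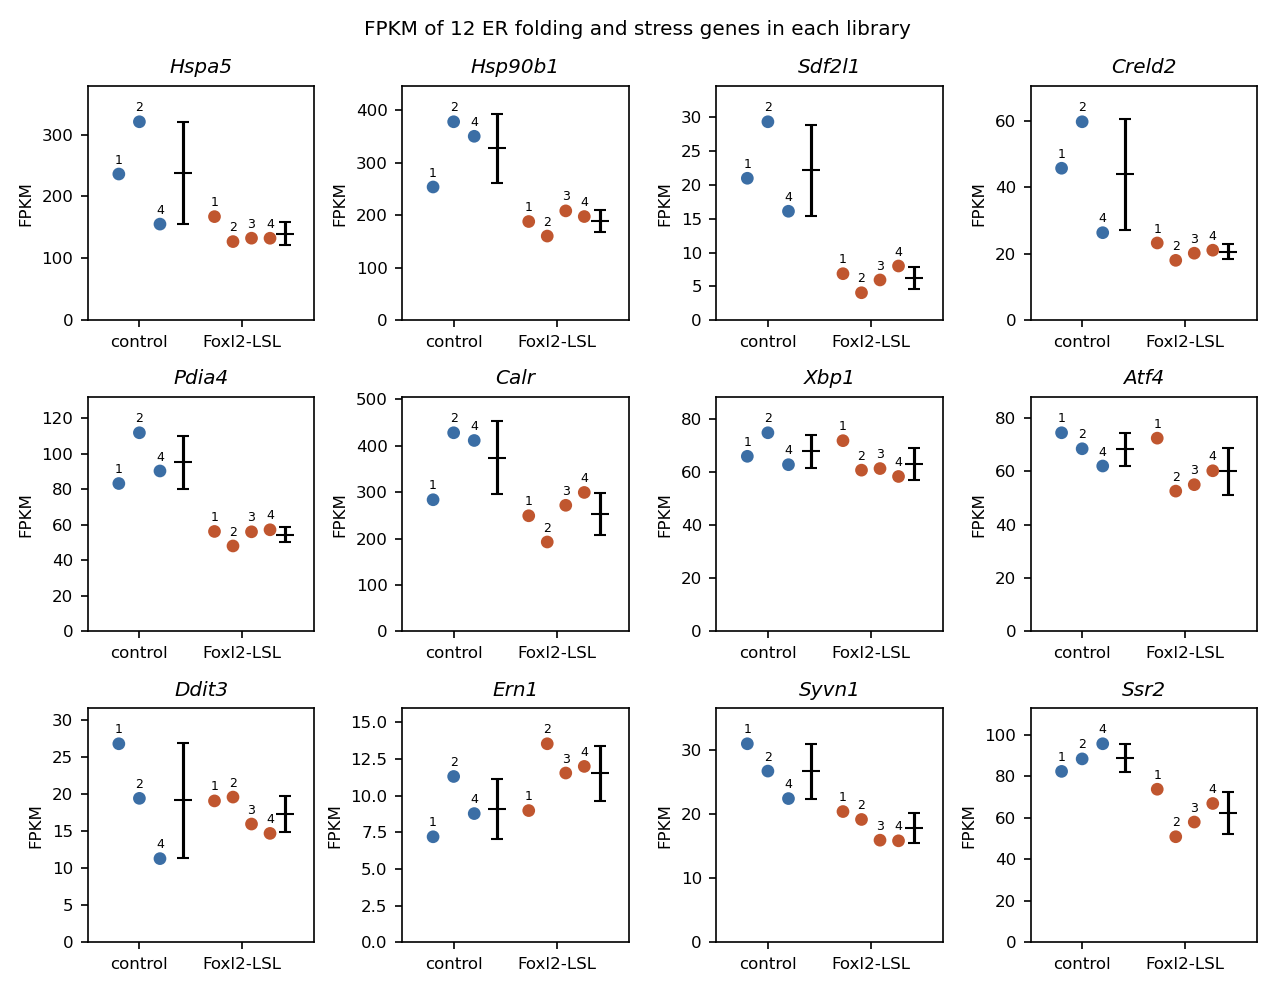
Each panel shows FPKM (axis from 0) of 1 gene in every library, controls in blue and libraries labelled Foxl2-LSL in orange with their replicate numbers; bars give mean ± SD (n = 3 and n = 4). Sdf2l1, Pdia4 and Hsp90b1 separate the groups, whereas Xbp1, Atf4, Ddit3 and Ern1 overlap.

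ER-associated degradation returns misfolded proteins to the cytosol for the proteasome. Of its 5 members 2 fell (40%, beside 23.9% of all tested genes). Syvn1, the ubiquitin ligase HRD1, was at 31.0, 26.7 and 22.4 FPKM in controls 1, 2 and 4 and at 20.4, 19.2, 15.9 and 15.9 FPKM in libraries 1 to 4 labelled Foxl2-LSL (log2 fold change -0.55, SE 0.13; limma adjusted p = 0.0136). Its exons overlap those of Mrpl49 on the opposite strand. Edem1, which marks misfolded glycoproteins for disposal, was at 11.5, 13.4 and 9.76 FPKM in controls 1, 2 and 4 and at 9.06, 7.11, 6.54 and 7.78 FPKM in libraries 1 to 4 labelled Foxl2-LSL (log2 fold change -0.54, limma adjusted p = 0.0143). For both genes each control lay above every library of the other group, as it did for 27.9% of all tested genes. Without control 2 the call of Syvn1 stood and that of Edem1 did not (adjusted p = 0.0534 by limma).

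Sel1l, the partner of HRD1, was not called (18.4 ± 2.23 against 17.0 ± 0.307 FPKM; SD, n = 3 and n = 4), and Herpud1, another HRD1 cofactor, was at 26.6 ± 8.08 and 28.4 ± 4.69 FPKM. With array weights Sel1l passed as lower (log2 fold change -0.23, limma adjusted p = 0.0248), beside 32.8% of all tested genes. Derl3, a derlin typical of secretory cells such as plasma cells, was at 2.54, 5.76 and 1.17 FPKM in controls 1, 2 and 4 and at 1.20 to 1.46 FPKM in libraries labelled Foxl2-LSL. Control 2 was the highest and control 4 the lowest of the 7 libraries, and the difference did not pass (log2 fold change -0.67, SE 0.33; limma adjusted p = 0.141). The value of Derl3 rested on single controls: it was -0.24 without control 2, and it was -1.06 without control 4, where it passed (limma adjusted p = 0.0111). With array weights it also passed (-1.28).

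The translocon threads new chains into the ER, the TRAP complex (Ssr genes) assists it, and signal peptidase trims the signal sequence. Of 8 members 3 fell (37.5%, beside 23.9% of all tested genes), all of them TRAP subunits. Ssr2 was at 82.3, 88.3 and 95.6 FPKM in controls 1, 2 and 4 and at 73.7, 50.8, 57.9 and 66.8 FPKM in libraries 1 to 4 labelled Foxl2-LSL (log2 fold change -0.51, limma adjusted p = 0.0167). Ssr3 was at 97.6, 111 and 114 FPKM and at 90.7, 78.1, 74.5 and 85.0 FPKM in the same order (log2 fold change -0.39, limma adjusted p = 0.0144). Ssr1 was at 19.9, 22.8 and 21.0 FPKM and at 18.9, 15.5, 16.6 and 17.9 FPKM (log2 fold change -0.29, limma adjusted p = 0.0333). The groups did not overlap for any of these subunits, and 27.9% of all tested genes were likewise lower without overlap. Library 1 labelled Foxl2-LSL was the nearest to the controls each time. Without control 2, 0 of the 8 translocon and signal peptidase genes passed (limma adjusted p = 0.0519 for Ssr2, 0.0546 for Ssr3 and 0.119 for Ssr1). The call of Ssr1 was also lost without control 4 and without library 2, 3 or 4 labelled Foxl2-LSL.

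The pore subunits did not pass: Sec61a1 had a log2 fold change of -0.27 (limma adjusted p = 0.0616; it passed without library 1 labelled Foxl2-LSL) and Sec61b one of -0.38 (limma adjusted p = 0.188). Sec61b was at 60.3 FPKM in library 2 labelled Foxl2-LSL and 87.7 to 121 FPKM in the other 3. The signal peptidase genes Spcs1 (74.6 ± 3.16 and 67.7 ± 7.81 FPKM), Spcs2 (43.8 ± 4.78 and 43.7 ± 4.24 FPKM) and Sec11c (38.1 ± 5.05 and 39.9 ± 9.97 FPKM) overlapped between the groups (SD, n = 3 and n = 4).

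Single libraries held the same rank for many members. Control 2 was the highest of the 7 libraries for 20 of 35 members and for 11 of the 15 chaperones and folding enzymes. Control 4 was the lowest control for 21 of 35, among them Hspa5, Creld2, Hyou1, Ddit3 and Herpud1. Library 2 labelled Foxl2-LSL was the lowest of the 7 for 23 of 35. It also had the fewest fragments and the smallest share of them on listed genes (74.4%). No share over all tested genes is set beside these ranks, so they are not shown to be particular to the members. Without control 2, the library with the high Ovgp1, the 7 members that passed were all among the 17. These were Hsp90b1, Hyou1, Dnajb11, Sdf2l1, Creld2, Pdia4 and Syvn1, and the median log2 fold change of the 35 members was then -0.26. Without library 2 labelled Foxl2-LSL 11 passed, and without library 3 also 11, beside 21.0% and 17.5% of all tested genes as lower. Leaving out library 4 gave 13, beside 18.4%. Libraries 2 and 3 are the 2 with the highest Adipoq, and the part of adipose RNA in these counts was not tested.

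The exact ER stress element was found in windows of chaperones and folding enzymes and of degradation genes. Among the 13 chaperones and folding enzymes with a window, 5 of the 7 that hold it fell and 5 of the 6 that lack it fell. It was present in Hspa5, Hsp90b1, Creld2, Canx and Pdia6, which fell, and also in Dnajc3 and Calr, which were not called. Dnajb11, Sdf2l1, Pdia3, Pdia4 and P4hb fell and held no exact match in their windows. In degradation genes, Syvn1 fell and Derl3 was not called, and both hold it. Of the genes with ER stress element II, Dnajb11 fell and Herpud1 was not called. These counts describe letters in a window and are not evidence of binding.

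Beyond the members, 176 related genes on 11 lists were examined, of which 166 were tested, 65 fell and 9 rose (23.9% of all tested genes were called as lower). Of 20 other folding and glycan-trimming enzymes 9 fell and 2 rose. Uggt1, the glucosyltransferase that returns misfolded glycoproteins to calnexin, went from 13.9 ± 1.02 to 8.33 ± 0.316 FPKM (SD, n = 3 and n = 4; log2 fold change -0.68), and the isomerase gene Pdia5 had a log2 fold change of -0.87. Sil1, a nucleotide exchange factor of BiP, rose from 6.44 ± 0.432 to 11.4 ± 0.673 FPKM (log2 fold change 0.73, limma adjusted p = 0.000601), opposite to Hyou1, which has the same activity.

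Of 12 oligosaccharyltransferase genes 2 fell (16.7%, beside 23.9% of all tested genes), with Rpn1 at a log2 fold change of -0.38. None passed without control 2, without control 4 or without library 3 labelled Foxl2-LSL, and 1 passed without library 2 or 4. Of 23 other degradation genes 7 fell (30.4%, beside the same 23.9%) and 1 rose. Nploc4, a cofactor of the p97 segregase, and Ube2g2, a ubiquitin-conjugating enzyme, each had a log2 fold change of -0.45, and the lectin gene Erlec1 rose (0.38). Without control 1 or without control 2, 5 of the 23 passed in either direction, beside 4880 and 3853 of the 13334 tested genes. Ube2g2 was lost without control 2. Of 15 other translocon, signal recognition and signal peptidase genes 1 fell, Srprb (-0.23), a share of 6.67%. Its call was lost without control 1 or 2 and without library 2, 3 or 4 labelled Foxl2-LSL. Without library 1 labelled Foxl2-LSL, 3 of the 15 passed in either direction, beside 4741 of the 13334 tested genes.

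ER-to-Golgi transport genes fell in 10 of 22 cases and rose in 0 at the adjusted threshold with limma. Kdelr3, a receptor that returns ER proteins from the Golgi, went from 32.3 ± 9.82 to 13.9 ± 2.52 FPKM (SD, n = 3 and n = 4; log2 fold change -1.13). The coat gene Sec23b went from 81.0 ± 44.6 to 34.97 ± 9.31 FPKM (-1.09), with a wide spread among controls, and Sec16b had a log2 fold change of -0.81. Without control 2, 4 of the 22 passed in either direction, beside 3853 of the 13334 tested genes (16.5% as lower), and Sec16b did not. Without library 3 labelled Foxl2-LSL 5 passed, beside 3975 of all tested genes (17.5% as lower). Without library 4 labelled Foxl2-LSL 6 passed, beside 4173 (18.4% as lower). Sec23b was lost without library 2, 3 or 4. Without control 4 the log2 fold change of Sec23b was -0.68.

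Genes of collagen folding in the ER fell in 9 of 14 cases, with a median log2 fold change of -0.67. Serpinh1, the collagen chaperone HSP47, went from 380 ± 151 to 149 ± 13.8 FPKM (SD, n = 3 and n = 4; log2 fold change -1.26). P4ha2, the catalytic subunit that pairs with P4hb in prolyl 4-hydroxylase, went from 30.5 ± 2.43 to 12.3 ± 3.37 FPKM (-1.27), and P3h1, a prolyl 3-hydroxylase, had a log2 fold change of -1.22. Without library 3 labelled Foxl2-LSL 5 of the 14 passed, beside 3975 of the 13334 tested genes (17.5% as lower).

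Other membrane-bound stress factors were mixed, with 2 lower and 1 higher of 10, beside 23.9% and 16.7% of all tested genes. Atf6b, the paralog of Atf6, had a log2 fold change of -0.45, and Mbtps1, the protease that cleaves ATF6 in the Golgi, one of -0.44. Crebrf, a regulator of CREB3 proteins, rose from 3.46 ± 0.426 to 6.89 ± 0.914 FPKM (SD, n = 3 and n = 4; 0.82). Of the 10, 5 passed without control 1 and 5 without control 4, beside 4880 and 5328 of the 13334 tested genes. Ern2, the IRE1 form of mucosal epithelium, stayed below 1 FPKM in all 7 libraries. The list of secretory epithelium ER genes had 2 of 6 genes tested, of which Tmed6 fell (-1.11).

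The integrated stress response list holds targets and parts of the pathway that PERK shares with other kinases. It moved both ways: 13 of 25 fell and 5 rose, beside 23.9% and 16.7% of all tested genes. Mthfd2, a mitochondrial folate enzyme, went from 14.6 ± 6.55 to 1.90 ± 0.594 FPKM (SD, n = 3 and n = 4; log2 fold change -2.38). Psat1, of serine synthesis, had a log2 fold change of -1.60 and the transcription factor gene Atf3 one of -1.32. The members that rose were Atf5, Slc7a11, Ddit4, Cebpb and Vldlr.

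Among chaperones outside the ER, 4 of 13 cytosolic genes were lower (30.8%, beside 23.9% of all tested genes), among them Hsp90aa1 (-0.87), Hspa4 (-0.51) and Hsp90ab1 (-0.45), whereas the estimates of Hspa1a, Hspa1b, Hspb1 and Cryab were above 0 and not called. Of 10 mitochondrial chaperone and protease genes 7 were lower, among them Hspe1 (-0.97), Hspd1 (-0.86) and Htra2 (-0.71). Without control 4, 7 of the 13 cytosolic genes passed, beside 5328 of the 13334 tested genes (24.0% as lower). Of the 10 mitochondrial genes 4 passed without control 2 or without any 1 of the 4 libraries labelled Foxl2-LSL. In these fits 3853 to 4837 of all tested genes passed (16.5% to 21.3% as lower). No test was made of whether ER genes differed from these lists.

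**Figure D4:**
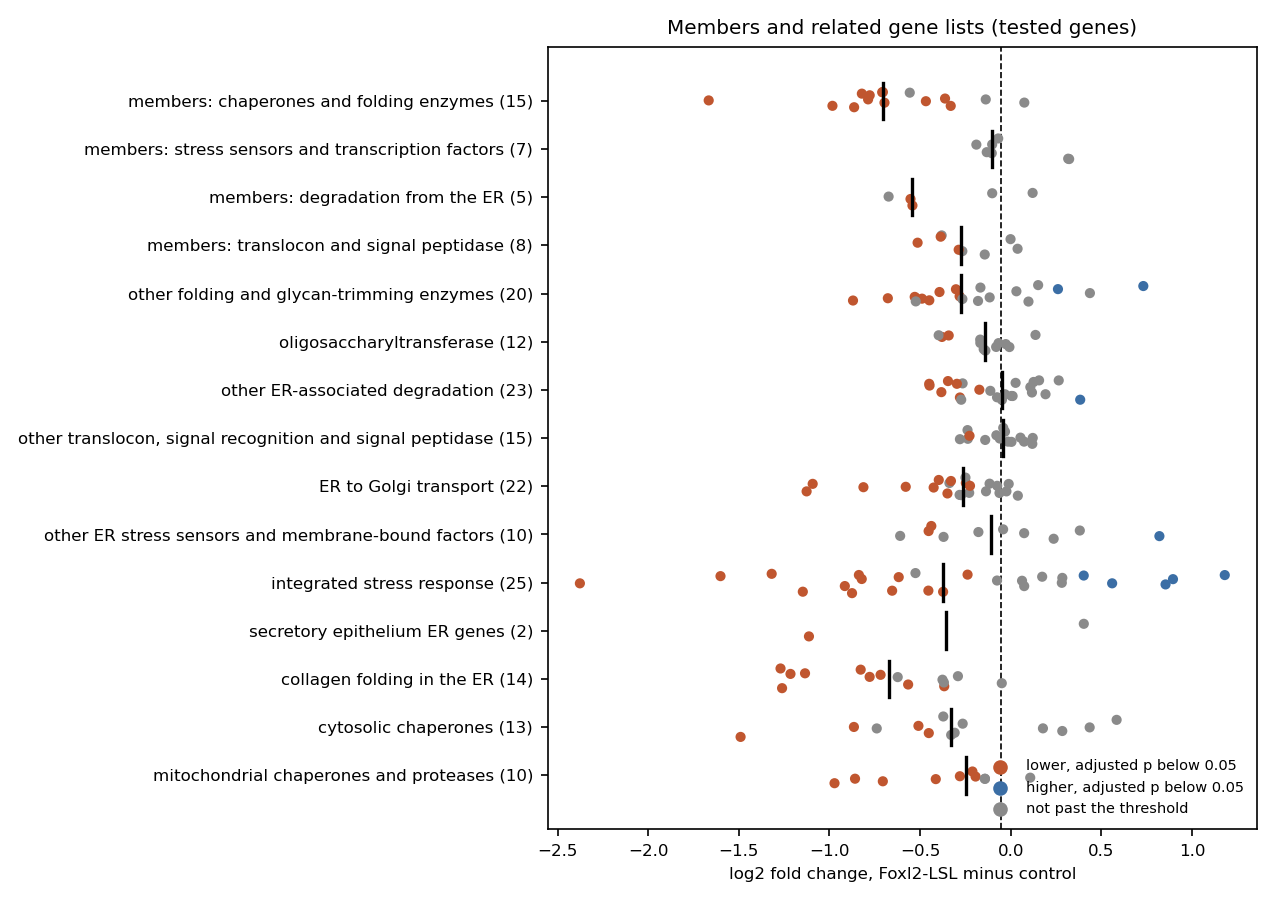
Each point is 1 tested gene, placed by its log2 fold change (Foxl2-LSL minus control, log2(FPKM + 1) scale), with list names and numbers of tested genes on the vertical axis; black bars are list medians and the dashed line is the median of all tested genes (-0.05). Member chaperones (median -0.71) and collagen folding genes (median -0.67) lie left of the line.

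Markers of cell types were also compared between the groups, and the ranges given are of each list's summed level. Of all tested genes 23.9% were called as lower and 16.7% as higher, and some of the counts below are near those shares. Cell cycle markers fell in 12 of 12 cases, with a summed level of 197 to 406 FPKM in controls and 59.8 to 98.5 FPKM in libraries labelled Foxl2-LSL. Uterine gland markers fell in 3 of 4 tested cases (sum 145 to 175 against 79.8 to 103 FPKM), and Prss28 and Prss29 were below 1 FPKM in every library. Simple epithelium markers rose in 3 of 11 cases (868 to 1670 against 1304 to 2057 FPKM), and smooth muscle markers in 2 of 8 (955 to 1823 against 1654 to 2094 FPKM). Endothelial markers fell in 6 of 8 cases and rose in 1 (140 to 191 against 94.4 to 104 FPKM), and stromal markers fell in 2 of 7 and rose in 1 (1159 to 2122 against 1693 to 1943 FPKM). Of the 4 tested plasma cell markers Prdm1 fell. It was at 8.81 to 14.9 FPKM in controls and 1.34 to 2.10 FPKM in libraries labelled Foxl2-LSL. Jchain (log2 fold change 0.45), Mzb1 (0.04) and Sdc1 (-0.35) were not called. The summed level of the list was 50.4 to 70.9 against 37.5 to 42.9 FPKM, most of it Sdc1. The defining markers Tnfrsf17 and Pou2af1 were below 1 FPKM in every library. Irf4, which was not tested, averaged 0.312 FPKM in controls and 0.975 FPKM in libraries labelled Foxl2-LSL. Leukocyte markers rose in 2 of 5 tested cases, Itgam (log2 fold change 1.597) and Csf1r (0.64), with a summed level of 37.4 to 52.9 FPKM in controls against 52.5 to 69.5 FPKM. Kit rose (0.90) among 5 mast cell markers (8.69 to 14.9 against 16.0 to 26.4 FPKM), and Wt1 fell (-0.94) among 5 mesothelium markers (82.1 to 138 against 42.3 to 109 FPKM). The part of these cell types in the falls of the ER genes was not tested.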

How the data were processed

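Whole uterus RNA was sequenced in 7 libraries. The authors deposited a table of FPKM values with gene lengths, per the file headers, with 1 column per library. The submitters' processing notes name STAR 2.5.2b, featureCounts 1.5.0-p1, Subread, DESeq2 1.12.4 and the build mm10, with no role for each. Not given in the sources used here are the annotation, whether strand was used, and filters. FPKM divides by all fragments of a library, so a strong rise of some genes lowers the others.

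FPKM multiplied by the deposited length, a value in bases per the file headers, fell on whole steps. Of the 1653 to 1832 low values per library (genes up to 1500 bases, up to 20 steps), 100% were whole to within 0.1; chance gives 20%. The step gave the fragments behind each value. Their counting error, which is small here, does not cover PCR copies. Values were converted to log2(FPKM + 1), which understates the change of low genes. The 13334 genes with a mean of at least 1 FPKM were fitted in R 4.3.3 by limma 3.58.1 (lmFit, eBayes with intensity trend; Benjamini-Hochberg over all tested genes, threshold 0.05). Exact permutation tests over the 35 splits and descriptions used Python 3.11.15 and scipy 1.17.1. On simulated data for 13334 genes, the fit called 200 of 200 genes given a log2 change of 1.5, each in its true direction. It also called 18 unchanged genes. The simulation gave every gene and both groups the same setting of spread, smaller than that of many members among the controls. For Hspa5 the SD was 34.8% of the mean in controls and 13.2% in libraries labelled Foxl2-LSL. The simulated counts therefore do not show how the fit calls genes with such spread. Calling of smaller log2 fold changes, such as -0.71 for Hspa5 or -0.29 for Ssr1, was not tested in this way.

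Both groups use the numbers 1, 2 and 4, which no label describes as pairing animals, so no block was used. Values in every library are given for Hspa5 and the sensors and transcription factors, and, for the other roles, for the members past the threshold, at most the 5 with the largest change in each. In each related list up to 3 genes past the threshold with groups that did not overlap were chosen by size. Members and lists were chosen with earlier results of these data known. Coordinates are from GENCODE M21 (GRCm38), and promoter sequences from RefSeq (GRCm38.p6). Exons of 11 members overlap another gene there. Alternatives covered scaling, pseudocount, filter, variance model, limma-voom, each library left out and the replicate block.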

Additional observations from a re-analysis of the deposited data

Results flagged for a closer look

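In the 4 libraries labelled Foxl2-LSL, 1 library stood far from the other 3 in 2 of 68 values examined. For Hspa5, library 1 (167 FPKM) was the high one, and its gap to the next library was 0.847 of the range of the 4 libraries on the log2 scale. For Pdia4, library 2 (48.1 FPKM) was the low one, with a gap of 0.884 of the range. Both exceed Dixon's critical value for 4 samples, which chance alone passes in about 1 of 20 groups.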

How the results depend on the processing

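The counts were recomputed under 18 alternatives, which are 17 different fits, since keeping libraries 1, 2 and 4 alone is the same as leaving out library 3 labelled Foxl2-LSL. In them, 0 of the 17 lower members changed direction. Hsp90b1, Sdf2l1, Pdia4 and Syvn1 were called in all 17 fits. Of 593 values of single members, 507 kept direction and side of the threshold, 56 lost a call, 14 gained one and 16 changed direction. Members past the threshold, all of them lower, numbered 17 as reported and 10 without a filter on low values. Of all genes tested, 23.9% were lower as reported and 12.2% without the filter. With each of the 7 libraries left out in turn they ranged from 7 to 17, and all genes from 3853 to 5328. The lowest counts came without control 2 (7) and without library 2 or 3 labelled Foxl2-LSL (11 each; for library 3 this is the fit of libraries 1, 2 and 4 alone). Array weights gave 23 members, with Dnajc3, Calr, Atf6, Sel1l, Derl3 and Sec61a1 added, and 7250 of all genes. Median centring gave 14 members and quantile normalization 17. What caused these differences was not tested.

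With a replicate block on libraries 1, 2 and 4, 5 of the 35 members passed, all of them lower. In this fit 14.1% of all tested genes were called as lower, so the share of members was near that of all genes. In either direction 3243 of all genes passed, against 5409 genes as reported. Deviations of same-numbered libraries correlated at 0.228, -0.0306 and -0.112 for numbers 1, 2 and 4. Taken within groups of 3 and 4 libraries, these values cannot decide whether the numbers pair the libraries.

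Reversed directions were limited to genes not called as reported. Spcs2 was at 0.050 with median centring, 0.040 with quantile normalization and 0.014 with limma-voom on the log2 scale. With array weights Dnajb9 was at -0.14, Herpud1 at -0.042, Sec11c at -0.00769 and Foxl2 at -0.15. With 1 library left out, log2 fold changes ranged as follows: Spcs2 from -0.063 to 0.083, Dnajc3 from -0.23 to 0.045, Dnajb9 from -0.15 to 0.197, Herpud1 from -0.13 to 0.31, Sec11c from -0.096 to 0.18, Ddit3 from -0.39 to 0.201 and Foxl2 from -0.0999 to 0.28.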
